A study of Mus musculus with 2 samples.

Results

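The transcripts described here are 39 genes of the type I interferon response, chosen by symbol from a fixed list and counted in 2 single-cell RNA libraries of mouse bone marrow. Of the 39 genes, 37 had a row under those symbols in the count tables of 32285 genes, and 35 gave at least 50 UMIs (unique molecular identifiers, each marking a single captured RNA molecule) over both libraries. Mx1 and Mx2 had no such row and were not analysed here. One library came from control mice carrying Trsp f/f, a floxed gene for the selenocysteine transfer RNA, and the other from knockout mice carrying Trsp f/f:Mx1-Cre. Both groups were C57BL/6 and both had received pI-pC, a synthetic double-stranded RNA, as 3 doses of 500 µg per mouse on alternate days. The injections are dated to 7 weeks after birth, and marrow of the femora and tibiae was taken 9 weeks after the last of them. The cells were Lineage- and cKit+, the fraction that holds stem and progenitor cells, and had been stored frozen. Mx1-Cre places the recombinase under the promoter of Mx1, itself an interferon-induced gene active in many cell types, so that pI-pC switches on the deletion, and the control genotype names no Cre. No library without pI-pC is among the samples, so each level below is one at 9 weeks after injection and not a change from an untreated state. Each group is 1 library and the sources used here do not give the number of mice in it, so no test between groups was possible. Intervals are 95% and cover counting error only.

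Type I interferons are secreted by cells that sense foreign RNA or DNA and bind the IFNAR1 and IFNAR2 receptor chains on neighbouring cells. The receptor's kinases JAK1 and TYK2 pass the signal to transcription factors that include STAT2 and IRF9, and their complex binds a promoter element called ISRE and switches on antiviral genes. In bone marrow, interferon released after pI-pC is known to bring resting haematopoietic stem cells (HSCs) into division, and stem cells are known to hold some interferon-induced genes at a raised level without infection.

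Promoters of 28 of the 39 members were found in RefSeq (GRCm38.p6), as windows of 250 bases before to 50 bases after the transcription start. The ISRE core, searched on both strands as GAAA, then 2 bases of any kind, then GAAA again, was found in 15 of the 28, and in 3.99% of 27025 genes with such a window. A second interferon element, GAS, searched as TTCNNNGAA on both strands, was found in 7 of the 28 and in 9.55% of all genes. A set of 4 windows is printed 5′ to 3′ in the direction of the gene, with the ISRE matches in capitals. Isg15 (chr4:156200769-156201068, minus strand), whose product is attached to other proteins like ubiquitin, held 3 overlapping matches, the first starting 78 bases before the transcription start. Ifit1 (chr19:34640639-34640938, plus strand), which encodes a binder of viral RNA caps, held 2. Of the 6 classes compared below, both genes stood highest in stem-like cells. Oas1a (chr5:120907476-120907775, minus strand), which encodes a synthetase of the 2′-5′ oligoadenylates that activate RNase L, also held 2 and was higher in the knockout library in each named class that had at least 10 of its UMIs. Samd9l (chr6:3399522-3399821, minus strand), which encodes a restrictor of viral translation and was highest in dendritic-like cells, held no match.
Isg15: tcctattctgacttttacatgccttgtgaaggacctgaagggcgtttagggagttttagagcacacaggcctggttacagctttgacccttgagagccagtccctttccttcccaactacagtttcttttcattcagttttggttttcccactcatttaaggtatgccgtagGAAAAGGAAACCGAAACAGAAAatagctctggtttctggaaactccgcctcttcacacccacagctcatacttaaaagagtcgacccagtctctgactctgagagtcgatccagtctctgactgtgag
Ifit1: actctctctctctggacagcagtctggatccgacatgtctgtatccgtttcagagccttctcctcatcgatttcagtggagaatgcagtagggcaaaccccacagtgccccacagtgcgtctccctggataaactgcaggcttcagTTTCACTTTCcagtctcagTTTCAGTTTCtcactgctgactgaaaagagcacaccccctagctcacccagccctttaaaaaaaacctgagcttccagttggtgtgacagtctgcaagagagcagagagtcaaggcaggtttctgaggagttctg
Oas1a: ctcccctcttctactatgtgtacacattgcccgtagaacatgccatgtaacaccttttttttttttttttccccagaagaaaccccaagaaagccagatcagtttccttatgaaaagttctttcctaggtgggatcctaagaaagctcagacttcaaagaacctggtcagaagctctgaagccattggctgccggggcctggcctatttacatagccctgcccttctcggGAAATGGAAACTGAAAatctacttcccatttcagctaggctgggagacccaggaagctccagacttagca
Samd9l: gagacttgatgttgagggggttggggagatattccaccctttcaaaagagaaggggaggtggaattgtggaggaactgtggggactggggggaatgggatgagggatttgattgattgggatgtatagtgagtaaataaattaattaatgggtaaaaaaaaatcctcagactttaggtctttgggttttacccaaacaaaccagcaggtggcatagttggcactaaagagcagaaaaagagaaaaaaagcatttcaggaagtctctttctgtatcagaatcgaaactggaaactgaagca
A match is a run of letters and not a proven site. Among members whose highest level in the control library was in HSC-like cells (classes are described next), 9 of 11 with a window held an ISRE match. The number was 3 of 9 for members highest in conventional dendritic cell-like cells and 0 of 5 for those highest in the multipotent or lymphoid-primed class, and the only member highest in basophil or mast-like cells, Ifitm2, held a match. In the knockout library the numbers were 8 of 13, 4 of 9 and 0 of 3 in the same order. The 5 control members counted for the multipotent or lymphoid-primed class were Irf1, Oasl1, Ifi44, Xaf1 and Dtx3l. For each, the interval of the control ratio between HSC-like cells and that class includes 0. Which of these classes held their highest level was thus not settled.

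After filtering, 8046 control and 6640 knockout cells remained, with medians of 20352 and 20744 UMIs per cell. Cells were clustered without any member and without the other interferon genes listed, and clusters were named from marker genes, so that the members' levels did not shape the classes. The 6 named classes described below each held at least 100 cells in each library. HSC-like cells (802 control and 617 knockout) were led by Hlf, Mecom and Meis1. The multipotent or lymphoid-primed class (383 and 381 cells) was led by Dntt, Flt3 and Satb1, with the plasmacytoid dendritic markers Cox6a2 and Ccr9 also among the leading genes. The others were conventional dendritic cell-like (185 and 137), basophil or mast-like (545 and 318), monocyte progenitor-like (1976 and 1329) and neutrophil progenitor-like cells (1974 and 1045). A further 4 clusters of that size stayed unnamed, among them cluster 1, of cells with few UMIs, which held 167 control and 1293 knockout cells. No cluster took the name of plasmacytoid dendritic cells, the main makers of type I interferon, at the clustering resolution of 1 used here, while at a resolution of 2 a cluster of 138 control and 216 knockout cells did. The genotype labels were checked on 6 selenoprotein transcripts, whose decay is known to rise when selenocysteine is not inserted. All 6 were lower in the knockout library, with Gpx1 at 1508 CPM (UMIs scaled to the same total per library and class) in the control and 253 CPM in the knockout library. Mpo, a neutrophil granule gene, was listed at 598 and 134 CPM in cells resembling T, NK or innate lymphoid cells, which should lack it, against 4957 and 4493 CPM in all kept cells. The part of free RNA in the members' levels was not tested.

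The first question was where in the marrow the interferon transcripts were found. Their summed level was highest in HSC-like cells, at 1759 CPM in the control and 1583 CPM in the knockout library, and lowest of the 6 classes in neutrophil progenitor-like cells, at 912 and 848 CPM. The sum of a core of 14 strongly inducible members (Isg15, Ifit1, Ifit2, Ifit3, Ifit3b, Rsad2, Usp18, Oasl1, Oasl2, Irf7, Cmpk2, Rtp4, Xaf1 and Ifi44) showed a wider range. It stood at 145 and 124 CPM in HSC-like, 124 and 90.6 CPM in multipotent or lymphoid-primed, 90.2 and 64.2 CPM in conventional dendritic cell-like, 36.7 and 35.7 CPM in basophil or mast-like, 27.0 and 22.2 CPM in neutrophil progenitor-like and 20.9 and 22.4 CPM in monocyte progenitor-like cells. The order of the first 4 classes was the same in both libraries. CPM is relative to all RNA captured, and HSC-like cells gave a median of 11664.5 and 13163 UMIs against 22036 and 27747 in neutrophil progenitor-like cells. Per cell, the 37 members together gave 21.7 and 22.2 UMIs in HSC-like and 20.9 and 24.3 UMIs in neutrophil progenitor-like cells, so the summed members were close on that scale, and monocyte progenitor-like cells gave more, at 26.3 and 30.1 UMIs. Core UMIs per cell were further apart, at 1.79 and 1.74 against 0.617 and 0.635.

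Among the 6 classes, 15 of the 35 members with at least 50 UMIs in the control and 18 in the knockout library had their highest level in HSC-like cells, and 14 in both. Of 14106 genes with as many UMIs, 26.3% and 23.4% did, and 16.6% in both. Conventional dendritic cell-like cells held the highest level of 13 and 12 members (20.4% and 20.2% of all genes), and the multipotent or lymphoid-primed class that of 6 and 4 (14.7% and 14.8%). No member stood highest in monocyte or neutrophil progenitor-like cells in either library, while 10.4% and 12.8% of all genes stood highest in the former and 12.5% and 12.9% in the latter. Smaller classes were left out of this order, such as T, NK or innate lymphoid-like cells, where Isg15 gave 12 and 1 UMIs (28.7 and 4.32 CPM).

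**Figure D1:**
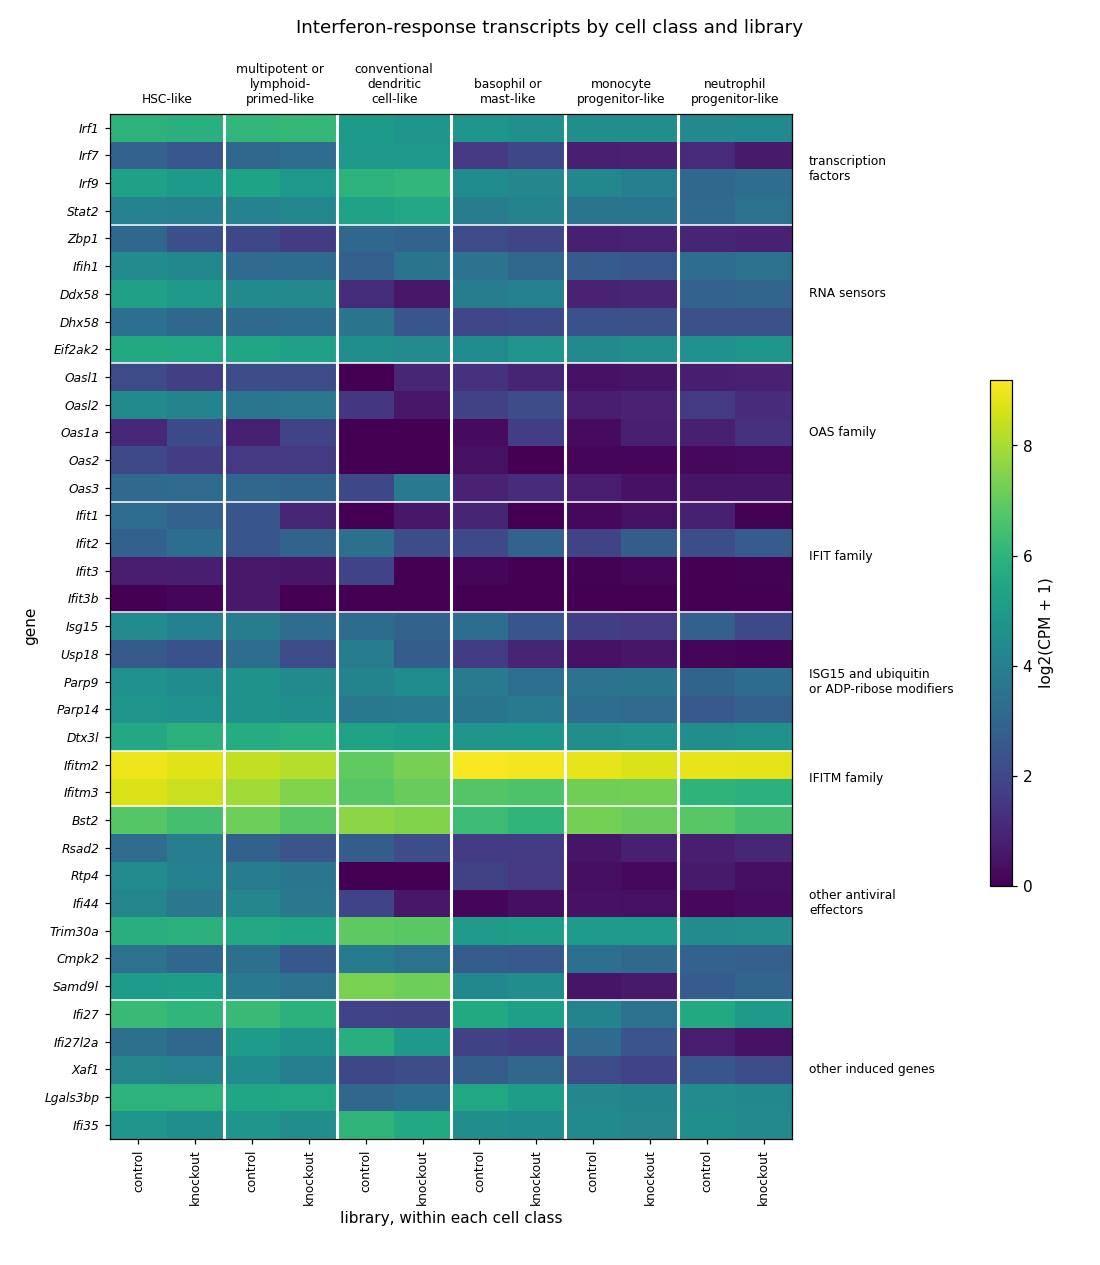
Each row is a member gene, grouped by role, and each column a library within a cell class; colour gives log2(CPM + 1) of summed UMIs. The rows of Ifit1, Oasl2, Rtp4 and Ifi44 are brightest in the HSC-like and multipotent or lymphoid-primed columns, and the rows of Irf7, Irf9, Stat2, Trim30a and Samd9l in the conventional dendritic cell-like columns.

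Against neutrophil progenitor-like cells, 15 of 18 measured members in the control library were at least 1.5-fold higher in HSC-like cells and 0 were lower, where 32.4% of all measured genes were that much higher and 16.9% lower. Measured means at least 20 CPM in either class or library compared and at least 50 UMIs over both, so a member could enter through its HSC-like level alone. In the knockout library the count was 12 of 15 with 0 lower, against 26.4% and 18.5% of genes. Against monocyte progenitor-like cells it was 15 of 18 with 0 lower in the control (21.7% and 17.4% of genes) and 12 of 15 with 1 lower, Bst2, in the knockout library (19.3% and 20%). Against basophil or mast-like cells it was 14 of 18 with 0 lower (12% and 11.7%) and 12 of 15 with 0 lower (11.2% and 12.8%). Ifi44, a GTP-binding antiviral protein, gave 172 control UMIs in HSC-like cells (17.4 CPM) and 7 in the far deeper neutrophil progenitor-like cells (0.155 CPM). Its knockout counts were 100 and 7. Rtp4, a chaperone with antiviral activity, stood at 20.8 against 0.575 CPM in control and 15.6 against 0.301 CPM in knockout cells. Ifitm3, which blocks viral fusion at endosomes, was 6.52-fold higher in HSC-like cells of the control library (407 against 62.4 CPM) and 6.21-fold higher in the knockout library (355 against 57.2 CPM). Ifitm2, its relative on chromosome 7, was level between those classes, at 495 and 481 CPM in control and 436 and 453 CPM in knockout cells. Bst2 (tetherin, which holds budding virus at the cell surface) was level too, at 109 and 111 CPM in control and 89.0 and 88.1 CPM in knockout cells.

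**Figure D2:**
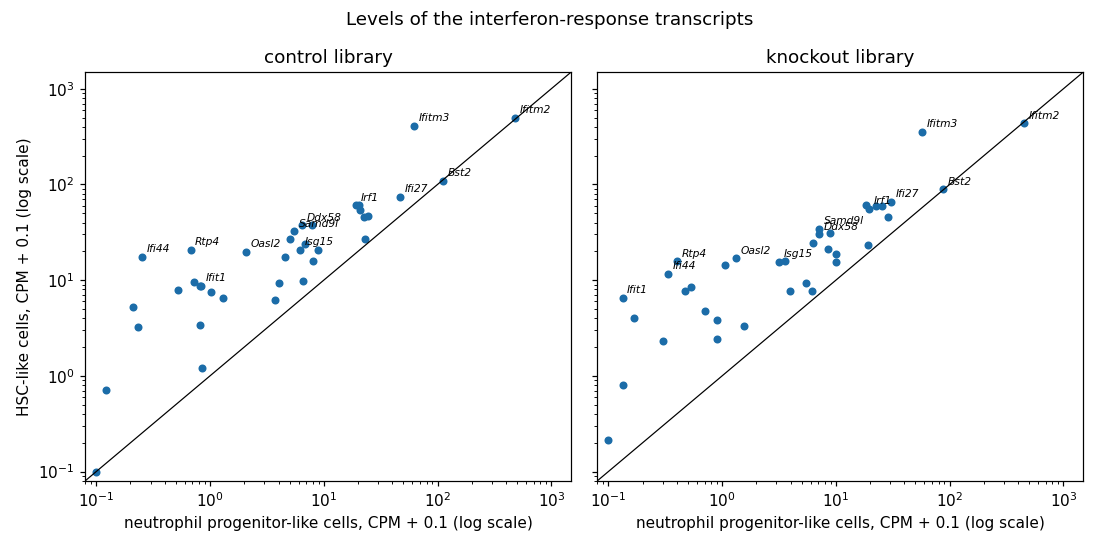
Each point is a member gene, with its level in neutrophil progenitor-like cells on the x axis and in HSC-like cells on the y axis, both as CPM + 0.1 on log scales, and the line marks equal levels. Most points lie above the line in both libraries, with Ifi44 and Rtp4 far above it and Ifitm2 and Bst2 on it.

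The RNA sensors Ddx58, Ifih1 and Eif2ak2 were highest in HSC-like cells in both libraries. Ddx58 (RIG-I) stood at 37.3 and 29.9 CPM in HSC-like cells, 20.4 and 19.0 CPM in the multipotent or lymphoid-primed class and 6.35 and 6.99 CPM in neutrophil progenitor-like cells, with 45 and 42 UMIs (0.874 and 0.979 CPM) in all monocyte progenitor-like cells. Ifih1 (MDA5), the sensor of long double-stranded RNA such as pI-pC, was at 20.7 and 18.7 CPM in HSC-like cells and between 4.64 and 10.5 CPM in the other 5 classes. Eif2ak2 (PKR), a kinase that stops translation when it binds double-stranded RNA, was at 47.2 and 45.2 CPM in HSC-like cells and between 20.2 and 41.3 CPM elsewhere. Zbp1, a sensor of left-handed nucleic acid, was low in all 6 classes and highest in conventional dendritic cell-like cells, at 7.73 and 6.52 CPM. Dhx58 (LGP2), which tunes the sensors above, gave 92 and 65 UMIs in HSC-like cells (9.29 and 7.52 CPM) and stood at 3.92 and 3.81 CPM in neutrophil progenitor-like cells. Its highest level was 10.7 CPM in conventional dendritic cell-like cells of the control and 8.53 CPM in the multipotent or lymphoid-primed class of the knockout library.

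The OAS family holds the enzymes that make the activator of RNase L, together with relatives such as Oasl1 and Oasl2. Oasl2 stood at 19.7 and 16.9 CPM in HSC-like, 11.1 and 11.6 CPM in multipotent or lymphoid-primed and 0.718 and 0.909 CPM in monocyte progenitor-like cells. Oas3 stood at 7.77 and 8.32 CPM in HSC-like and 7.59 and 6.76 CPM in multipotent or lymphoid-primed cells, and gave 7 and 25 UMIs in conventional dendritic cell-like cells (3.01 and 12.5 CPM). Oasl1 and Oas2 were lower, at 3.33 and 2.31 CPM and at 3.13 and 2.20 CPM in HSC-like cells. Xaf1, a promoter of apoptosis, stood at 17.3 and 15.8 CPM in HSC-like and 21.1 and 14.5 CPM in multipotent or lymphoid-primed cells, and at most 7.26 CPM in the other 4 classes.

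Conventional dendritic cell-like cells had another profile. The transcription factors Irf7, Stat2 and Irf9 were highest there. Irf7, the amplifier of interferon-α genes, stood at 29.6 and 29.1 CPM against 6.46 and 4.62 CPM in HSC-like cells. Stat2 stood at 38.6 and 44.2 CPM against 15.8 and 15.3 CPM, and Irf9 at 61.4 and 67.2 CPM against 37.8 and 31.2 CPM. Samd9l stood at 163 and 145 CPM there against 32.3 and 34.5 CPM in HSC-like and 0.447 and 0.583 CPM in monocyte progenitor-like cells. Trim30a, a brake on innate signalling, was at 120 and 114 CPM, and Bst2 at 194 and 175 CPM. Other members were close to absent: Rtp4 gave 0 UMIs in both libraries of this class (at most 1.29 and 1.51 CPM at the 3 UMIs that a count of 0 allows), Oas1a and Oas2 gave 0, Ddx58 gave 3 and 1 UMIs, and Ifi27 6 and 5. In HSC-like cells Ifi27, a mitochondrial and nuclear-envelope protein of the interferon response, stood at 74.7 and 65.9 CPM. Over measured members, 11 of 21 were at least 1.5-fold higher in HSC-like than in dendritic-like control cells and 8 were lower, where 26.0% and 19.9% of genes were. In the knockout library 9 of 18 were higher and 8 lower, where 26.1% and 20.9% of genes were.

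The multipotent or lymphoid-primed class lay close to HSC-like cells. There, 6 of 20 measured control members were at least 1.5-fold higher in HSC-like cells (6.42% of genes) and 1 was lower (4.38%), with 4 of 16 (6.79%) and 1 (4.73%) in the knockout library. The member that was lower was Ifi27l2a in both libraries, with 9.49 and 7.63 CPM in HSC-like against 32.9 and 25.1 CPM in the multipotent or lymphoid-primed cells. Irf1, a transcription factor that also answers to interferon-γ, stood at 66.4 and 68.9 CPM there and at 60.3 and 55.8 CPM in HSC-like cells, above the range of 19.1 to 31.3 CPM in the other 4 classes. Lgals3bp, a secreted glycoprotein, was at 61.3 and 60.7 CPM in HSC-like cells. Of the remaining modifiers, Parp9 and Parp14, which add ADP-ribose, and Dtx3l, the ubiquitin ligase partner of Parp9, stood between 21.2 and 59.4 CPM in HSC-like cells and between 4.91 and 25.2 CPM in neutrophil progenitor-like cells.

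The second question was whether the genotypes differed. Over all kept cells, 10 members were measured and 0 were 1.5-fold apart in either direction, where 0.607% of 6096 measured genes were that much lower and 1.02% higher in the knockout library. The median log2 ratio, knockout over control, was -0.08 over these members and 0.08 over all measured genes. Ifitm2 went from 469 to 419 CPM, Ifitm3 from 149 to 143 CPM, Bst2 from 123 to 104 CPM and Ifi27 from 41.4 to 30.4 CPM. Irf1 (27.5 and 28.2 CPM), Trim30a (30.8 and 32.7 CPM), Lgals3bp (30.8 and 28.6 CPM), Eif2ak2 (25.9 and 28.1 CPM), Dtx3l (26.4 and 30.7 CPM) and Ifi35 (23.4 and 20.2 CPM) completed the 10. Below the floor, Ifit1 was lower (235 and 118 UMIs) and Ifit2 higher (612 and 837 UMIs) in the knockout library, as was Oas1a (95 and 210 UMIs). All kept cells include the low-UMI cluster 1, whose share of cells differed between libraries, and the summed members of that cluster gave a log2 ratio of 0.32 (0.18 to 0.46).

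In HSC-like cells 18 members were measured and 0 were 1.5-fold lower or higher, where 0.515% of 6411 genes were lower and 0.624% higher. Their median log2 ratio was -0.18, beside 0.01 over all measured genes, and 15 of 18 lay below 0, where 46.6% of all genes did. The summed members gave a log2 ratio of -0.15 (-0.18 to -0.12), and the core -0.22 (-0.34 to -0.10). These ratios are of CPM, and per cell the summed members gave 21.7 control and 22.2 knockout UMIs. The median mitochondrial share was 3.77% and 4.67% in HSC-like cells, and was higher in the knockout library in each named class compared. Its part in the ratios was not tested. Without cells of 5 or more core UMIs after thinning, an alternative chosen after seeing the data that is described with the single cells below, the core ratio was -0.06 (-0.19 to 0.06). The abundant membrane genes carried most of these UMIs: Ifitm2 had 4904 and 3775 UMIs (-0.18, -0.24 to -0.12), Ifitm3 4036 and 3074 (-0.20, -0.27 to -0.13) and Bst2 1083 and 770 (-0.30, -0.43 to -0.16). Among sensors and factors, Ddx58 gave -0.32 (-0.55 to -0.09), Irf9 -0.27 (-0.51 to -0.04), Ifih1 -0.14, Irf1 -0.11 and Eif2ak2 -0.06, the last 3 with intervals that include 0. Dtx3l had 450 and 514 UMIs and was the measured member with the highest ratio, 0.39 (0.20 to 0.57), followed by Trim30a at 0.14 (-0.04 to 0.32) and Samd9l at 0.09 (-0.14 to 0.33). The lowest ratios of the 18 were those of Isg15 at -0.44 and Rtp4 at -0.41. The others were Lgals3bp at -0.01, Parp14 at -0.15, Parp9 at -0.18, Ifi27 at -0.18 and Ifi35 at -0.21.

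**Figure D3:**
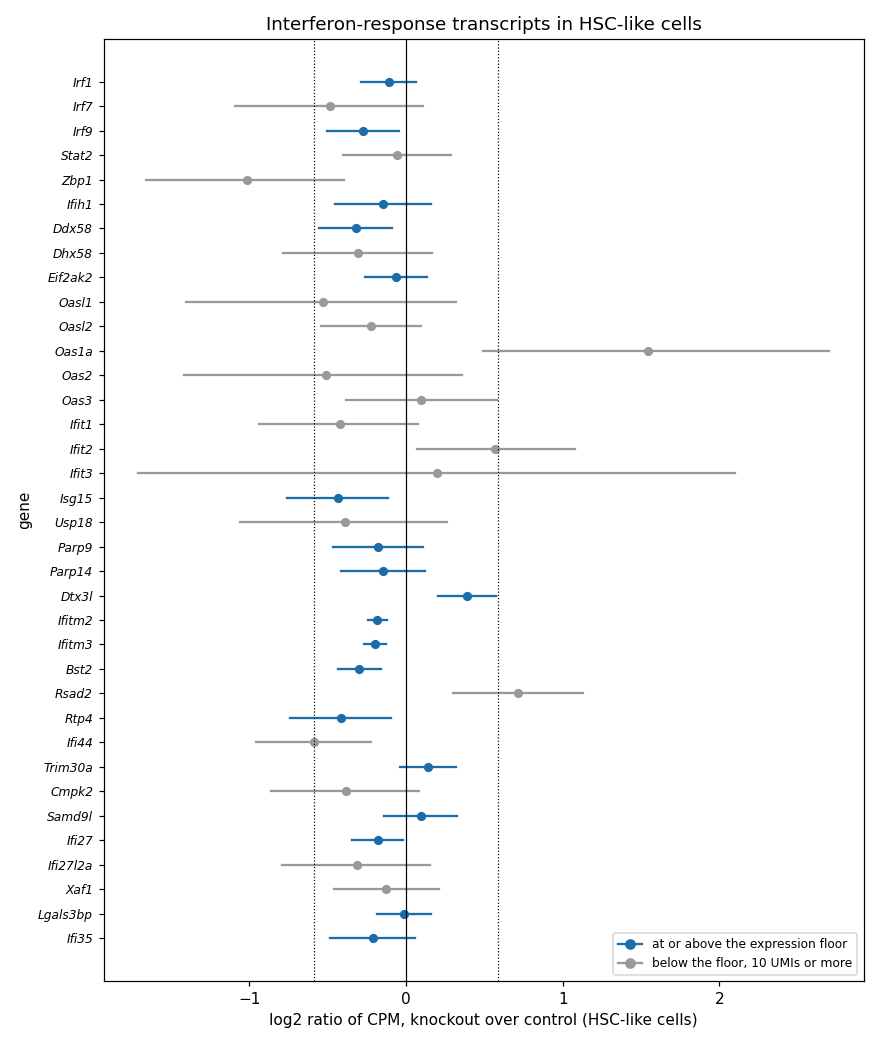
Log2 ratio of CPM, knockout over control, for each member with at least 10 UMIs in HSC-like cells, with bars for the 95% counting interval; blue points passed the expression floor, grey points did not, and dotted lines mark 1.5-fold. All blue points lie between the dotted lines, most left of 0, and Oas1a and Zbp1 lie farthest out on opposite sides.

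Members below the floor in HSC-like cells lay on both sides of 0. Zbp1 gave 74 and 32 UMIs (-1.01, -1.66 to -0.40) and Ifi44 172 and 100 (-0.59, -0.96 to -0.22), both lower in the knockout library. Rsad2 (viperin, which makes a chain-terminating nucleotide) gave 86 and 123 UMIs (0.71, 0.30 to 1.13) and Oas1a 11 and 28 (1.54, 0.49 to 2.70), both higher. The 28 Oas1a UMIs lay in 28 different cells. Ifit1 had 86 and 56 UMIs, and a single knockout cell held 28 of the 56. The Oas1a reads may be shared with Oas1g, since the last 300 bases of the transcripts are 96.7% identical. Ifit3 and Ifit3b are 95.3% identical there and uncertain for the same reason. Over all kept cells Ifit3 gave 26 and 17 UMIs and Ifit3b 3 and 1.

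**Figure D4:**
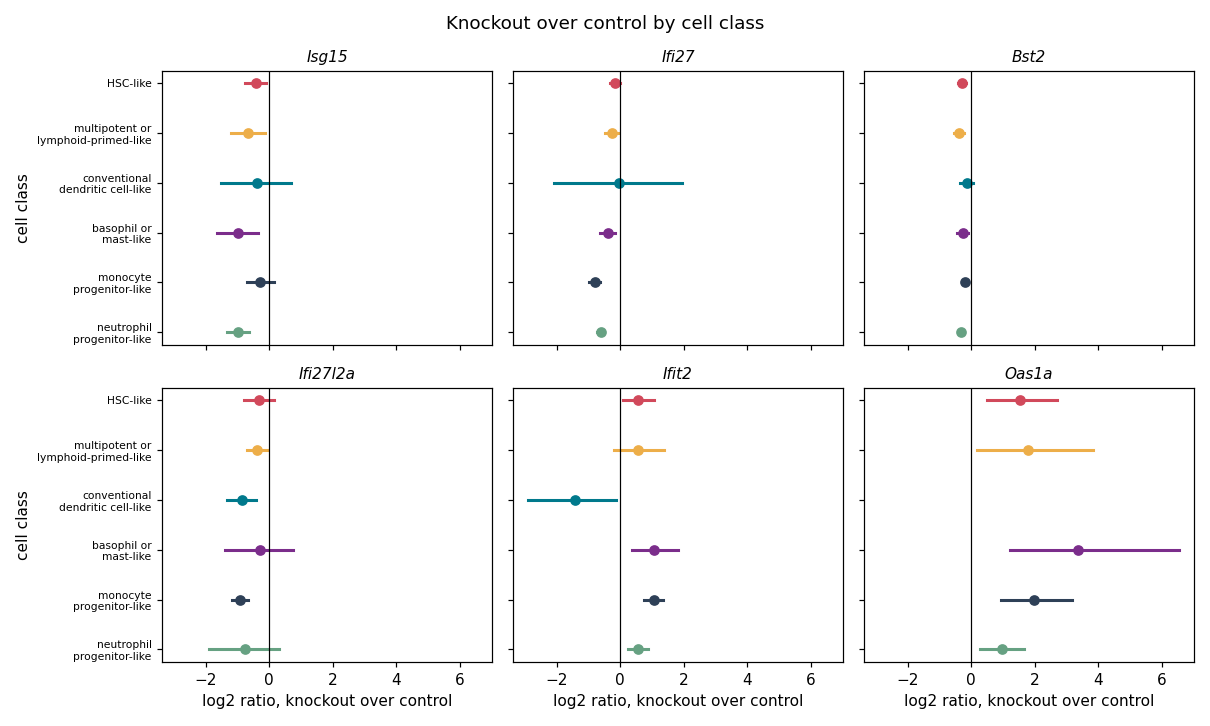
Log2 ratio of CPM, knockout over control, of 6 members in each cell class with at least 10 UMIs, with bars for the 95% counting interval. Isg15, Ifi27, Bst2 and Ifi27l2a lie left of 0 in all 6 classes, Oas1a right of 0 in the 5 classes shown, and Ifit2 right of 0 except in conventional dendritic cell-like cells.

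A smaller set of members kept a direction across the named classes compared, which share a library and so are not replicates. Isg15, Ifi27, Ifi27l2a, Bst2, Ifi35 and Cmpk2 were lower in the knockout library in 6 of 6 named classes. With the unnamed clusters added, Ifi27l2a was higher in 2 of 10 groups and Ifi35 in 1. The small mature B or plasma-like class (65 and 36 cells) differed. There Ifi27l2a gave 60 and 81 UMIs (1.17, 0.67 to 1.68) and Isg15 7 and 15 (1.84, 0.46 to 3.38). Ifi27 and Ifi35 were also higher in that class and Bst2 and Cmpk2 lower, all with intervals that include 0. Members named here and below for a shared direction were picked by their sign. The share of all genes that keep a sign over the classes is not given, so the counts are not a result about the list. Within single named classes, between 31.8% and 47.8% of all measured genes lay below 0. Under other processing settings the sign turned for Isg15 in conventional dendritic cell-like (up to 0.14) and monocyte progenitor-like cells (up to 0.03), for Ifi27 in conventional dendritic cell-like cells (up to 0.25), for Ifi27l2a in basophil or mast-like (up to 0.21) and neutrophil progenitor-like cells (up to 0.34) and for Ifi35 in basophil or mast-like cells (up to 0.06). Isg15 ran from -0.99 (276 and 92 UMIs in neutrophil progenitor-like cells) to -0.28 (117 and 80 in monocyte progenitor-like cells), with 4 intervals below 0. Ifi27 ran from -0.81 in monocyte progenitor-like (872 and 415 UMIs) to -0.04 in conventional dendritic cell-like cells (6 and 5 UMIs). In neutrophil progenitor-like cells Ifi27 went from 46.6 to 30.3 CPM and was the only 1 of 9 measured members 1.5-fold lower (0.427% of genes), with 0 higher (1.76%). Its log2 ratio there, -0.62, lay between -0.74 and -0.52 under the other settings, and 0 members passed 1.5-fold under 6 of them. Ifi27l2a went from 55.0 to 30.1 CPM in conventional dendritic cell-like cells (128 and 60 UMIs), the only 1 of 14 measured members 1.5-fold lower there (2.78% of genes), with 0 higher (5.41%). Bst2 stayed within a narrow range, -0.39 to -0.15. Cmpk2, a mitochondrial nucleotide kinase next to Rsad2 on chromosome 12, ran from -0.99 to -0.11, while Rsad2 itself was lower in 3 classes and higher in 3, among them monocyte progenitor-like cells (23 and 33 UMIs, 0.78, -0.03 to 1.62). Rtp4 was lower in all 5 classes with at least 10 UMIs.

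Oas1a went the other way, higher in the knockout library in 5 of 5 classes with at least 10 UMIs, from 0.97 (34 and 44 UMIs in neutrophil progenitor-like cells) to 3.35 (2 and 14 in basophil or mast-like cells), each with an interval above 0. Ifit2, an RNA-binding member of the IFIT family, was higher in 5 of 6: it had 139 and 239 UMIs in monocyte progenitor-like cells (1.05, 0.74 to 1.36) and 29 and 42 in basophil or mast-like cells (1.08, 0.36 to 1.81). In conventional dendritic cell-like cells it had 22 and 7 UMIs (-1.43), and the ratio was 0.06 with a stricter cell filter. Stat2 and Dtx3l were also higher in 5 of 6 classes, Stat2 by at most 0.32. Ifit1 and Ifit2, both on chromosome 19, had opposite signs over all kept cells, at -0.73 (-1.06 to -0.40) and 0.72 (0.57 to 0.87). Over the processing settings the Ifit1 ratio lay between -1.32 and -0.21, outside its interval on both sides, and that of Ifit2 between 0.56 and 0.81. By class, Ifit1 ran from -4.45 in neutrophil progenitor-like to 1.07 in monocyte progenitor-like cells. Of the 4 named classes with at least 10 of its UMIs, 2 had an interval below 0 and 0 had one above. In knockout monocyte progenitor-like cells, 2 cells held 86 of the 961 UMIs of the core genes, which include Ifit1. A single knockout HSC-like cell held 28 Ifit1 UMIs, and counting intervals leave such gathering out.

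In the other classes few members were far apart. The multipotent or lymphoid-primed cells had 0 of 16 measured members 1.5-fold apart (0.962% of genes lower, 1.14% higher), with a median of -0.23 and 13 of 16 below 0, where 43.0% of genes were. In this class the 9 markers of common lymphoid or early B progenitors summed to 84.2 and 141 CPM (2 and 1 of the 9 at 0), and those of monocyte progenitors to 678 and 535 CPM. Their part in the result was not tested. Below the floor there, Usp18, the protease that removes ISG15 and damps the receptor, went from 48 to 22 UMIs, Cmpk2 from 52 to 30, Isg15 from 76 to 55 and Ifi44 from 99 to 73. Basophil or mast-like cells had 0 of 12 apart (0.665% lower, 1.76% higher) and a median of -0.11, and Isg15 went from 84 to 29 UMIs. Monocyte progenitor-like cells had 0 of 8 apart (0.535% lower, 1.29% higher) and a median of -0.02, and Ifi27l2a went from 426 to 188 UMIs, below the floor. In neutrophil progenitor-like cells Irf7 went from 54 to 18 and Oasl2 from 90 to 37 UMIs, both below it. The core sum gave log2 ratios of -0.45 (-0.62 to -0.29) in multipotent or lymphoid-primed, -0.49 (-0.82 to -0.17) in conventional dendritic cell-like and -0.28 (-0.42 to -0.14) in neutrophil progenitor-like cells, and 0.10 (-0.03 to 0.23) in monocyte progenitor-like cells. Without cells of 5 or more core UMIs these were -0.18 (-0.37 to 0.00), -0.02 (-0.41 to 0.36), -0.27 (-0.41 to -0.13) and -0.03 (-0.16 to 0.10). In basophil or mast-like cells the core ratio was -0.04 (-0.29 to 0.20), and 0.01 (-0.24 to 0.26) without such cells.

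The unnamed clusters were compared in the same way. In the low-UMI cluster 1, 0 of 10 measured members were 1.5-fold lower in the knockout library (4.79% of genes) and 2 higher (14.5%), Ifitm3 with 45 and 740 UMIs (0.96, 0.53 to 1.43) and Dtx3l with 9 and 131 (0.79, -0.18 to 1.95). Parp9 gave 4 and 58 UMIs there (0.78, -0.65 to 2.71). None of the measured members was 1.5-fold apart in cluster 3 (0 of 10, where 0.594% of genes were lower and 0.66% higher), cluster 6 (0 of 13, where 1.01% and 2.18% were) or cluster 15 (0 of 13, where 3.03% and 3.6% were). The core sum was higher in the knockout library in cluster 15 (0.52, 0.17 to 0.88) and cluster 6 (0.17, 0.03 to 0.31). It was lower in cluster 3 (-0.33, -0.50 to -0.16), and cluster 1 gave 0.39 (-0.37 to 1.26). Below the floor, cluster 3 gave 109 and 45 UMIs of Isg15 (interval of the log2 ratio -1.53 to -0.48), 48 and 13 of Rtp4 (-1.61, -2.61 to -0.70), 73 and 91 of Ifit2 (0.60, 0.14 to 1.06) and 14 and 37 of Oas1a (1.68, 0.76 to 2.68). Isg15 and Rtp4 were thus lower, and Ifit2 and Oas1a higher, as in HSC-like cells. Cluster 6, led by genes of cell division, gave 59 and 114 UMIs of Ifit2 (1.10, 0.63 to 1.58) and 31 and 49 of Ifi44 (0.81, 0.13 to 1.51), both below the floor. It also gave 47 and 70 UMIs of Rsad2 (0.72, 0.17 to 1.29), 42 and 57 of Irf7 (0.59, -0.01 to 1.20) and 164 and 222 of Stat2 (0.59, 0.29 to 0.89). In HSC-like cells Ifit2 and Rsad2 were higher too (0.57 and 0.71), while Ifi44, Irf7 and Stat2 were at -0.59, -0.48 and -0.05. HSC-like cells were at least 1.5-fold higher than cluster 3 in 13 of 18 measured members of the control (13.2% of genes) and 10 of 15 of the knockout library (13.3%), with 0 lower in each (9.81% and 12.1%). Against cluster 6 the numbers were 11 of 18 (10.1%) and 5 of 15 (7.02%), with 0 lower in each (9.94% and 8.69%).

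The third question was whether the core signal was spread over all cells or held by a few. Each cell was thinned to 5000 UMIs, which left out 18 control and 5 knockout HSC-like cells with fewer. In HSC-like cells, 46 of 784 control (5.87%, Clopper-Pearson 4.33 to 7.75%) and 30 of 612 knockout cells (4.90%, 3.33 to 6.92%) then held at least 3 core UMIs. The intervals overlap, and without thinning the shares were 20.8% and 20.4%. The shares in the multipotent or lymphoid-primed class were 6.82% and 5.26%, and in conventional dendritic cell-like cells 2.81% and 2.22%. In basophil or mast-like, monocyte progenitor-like and neutrophil progenitor-like cells they lay between 0.0962% and 0.560%. Cells at 3 or more are the end of a range and not a separate type: 72 control and 47 knockout HSC-like cells held 2, and 14 and 18 held exactly 3.

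**Figure D5:**
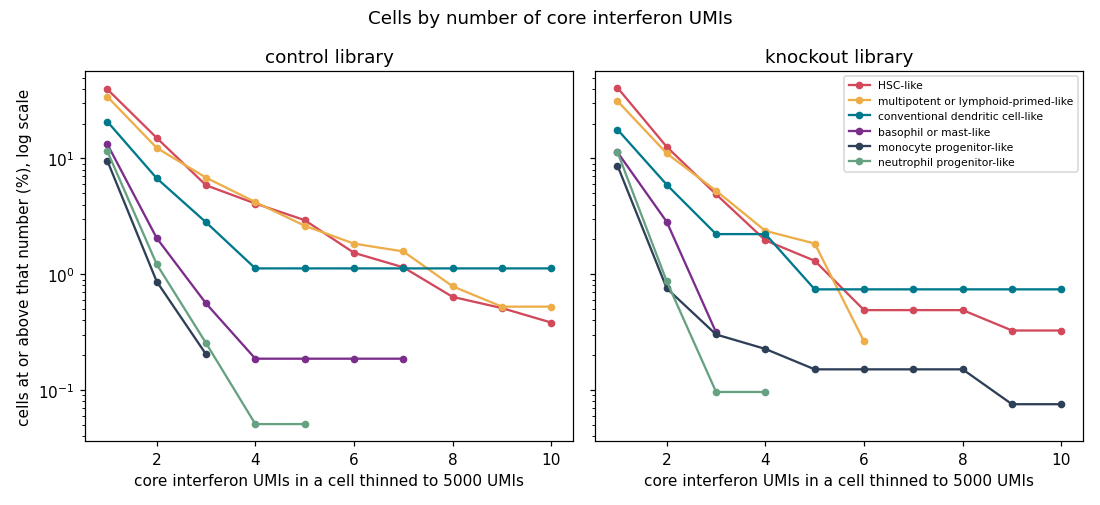
Share of cells (percent, log scale) holding at least the number of core interferon UMIs on the x axis, after thinning each cell to 5000 UMIs; a line ends where no cell reaches the number, and the x axis stops at 10. HSC-like and multipotent or lymphoid-primed lines lie above the monocyte and neutrophil progenitor-like lines at 1, 2 and 3 UMIs in both libraries.

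A small number of cells held part of the core signal, and most core UMIs lay in other cells. At 5 or more core UMIs there were 47 control cells, of which 23 were HSC-like and 10 multipotent or lymphoid-primed, and 21 knockout cells, of which 8 and 7 were. Over all kept cells they held 12.5% of control and 7.47% of knockout core UMIs. In basophil or mast-like, monocyte progenitor-like and neutrophil progenitor-like cells the share was at most 8.95%. The 23 control HSC-like cells held 25.3% of that class's core UMIs and the 8 knockout cells 15.4%, those of the multipotent or lymphoid-primed class 27.9% and 12.3%, and 2 control and 1 knockout conventional dendritic cell-like cells 82 of 210 and 20 of 128 such UMIs, and the largest single cells held 76 and 81 core UMIs before thinning. They expressed a median of 6 and 6.5 of the 14 core genes. With these cells left out, the core log2 ratio was 0.01 (-0.05 to 0.06) over all kept cells, beside -0.07 with them. The cells were chosen by the same core UMIs, and those left out held 882 in control and 417 in knockout cells. The rise of the core ratio followed from that choice and is not a separate result. Core genes such as Isg15 and Ifi44 share this limit. The log2 ratio of Isg15 in HSC-like cells moved from -0.44 to -0.10 and that of Ifi44 from -0.59 to -0.26. Those of Bst2, Oas1a and Rsad2 were -0.25, 1.52 and 0.86.

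Genes that the core count did not use were compared between HSC-like cells with at least 3 core UMIs and those with 0. A list of other interferon-induced genes summed to 3768 against 2198 CPM in control and 3505 against 1980 CPM in knockout cells, and class I antigen presentation genes to 4810 against 4124 and 4463 against 4024 CPM. Ifitm3 stood at 645 against 362 CPM in control and 447 against 322 CPM in knockout cells. Bst2 was higher in such control cells (212 against 100 CPM), while in the knockout library 32 UMIs gave 87.8 CPM (60.0 to 124) against 90.9 (83.0 to 99.4). Ifitm2 was not higher, at 466 against 510 CPM and 384 against 439 CPM. Median depths before thinning, first for cells with at least 3 and then for those with 0 core UMIs, were 10596 and 12249.5 UMIs in control and 12484 and 13931.5 in knockout cells.

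Ligands of the pathway were close to absent. All 18 type I interferon genes listed gave 19 control and 5 knockout UMIs over all kept cells, 14 of them gave 0 in both, and Ifnb1, the gene most cells express first after infection, was among these 14. The control UMIs were 13 of Ifnz and 6 of Ifna2. Ifng gave 1 and 0. Receptors and signal carriers were present in both libraries. In HSC-like cells Ifnar1 stood at 26.2 and 33.4 CPM (0.35, 0.10 to 0.60), Ifnar2 at 77.4 and 80.4 CPM and Jak1 at 153 and 166 CPM. Of the measured genes in HSC-like cells, 0 of 4 receptor, 0 of 4 JAK-STAT, 0 of 6 inhibitor, 0 of 6 nucleic acid sensing, 0 of 24 further interferon-induced and 0 of 13 class I antigen presentation genes were 1.5-fold lower or higher. Their median log2 ratios were 0.07, 0.11, 0.07, 0.05, -0.01 and -0.02. B2m, the shared light chain of class I molecules, stood at 1214 and 1188 CPM, and Ifi47, an interferon-induced GTPase, at 53.0 and 62.3 CPM.

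Some genes of these lists, named after their values were seen, were lower in the knockout library. They were picked for being lower, and with medians near 0 others of the same lists were higher. In the multipotent or lymphoid-primed class, 2 of 21 further interferon-induced genes and 1 of 6 inhibitors were at least 1.5-fold lower. In both lists 0 were higher there, where 0.962% of all measured genes were lower and 1.14% higher. Ifitm1, a relative of Ifitm3, stood at 584 and 404 CPM in HSC-like cells (-0.53, -0.59 to -0.47) and at 222 and 105 CPM in multipotent or lymphoid-primed cells (-1.08, -1.22 to -0.94). Socs3, an inhibitor of JAK signalling, stood at 51.4 and 34.9 CPM in HSC-like (-0.56, -0.77 to -0.35) and 29.1 and 18.2 CPM in multipotent or lymphoid-primed cells. Ly6a (Sca-1), a surface marker of stem cells that interferon raises, stood at 41.4 and 32.3 CPM and at 23.9 and 9.02 CPM in those classes. Cxcl10, a chemokine, gave 63 and 17 UMIs in HSC-like cells, below the floor. Tlr3, a receptor for double-stranded RNA such as pI-pC, gave 10 UMIs in each library.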

How the data were processed

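Lineage- cKit+ bone marrow cells were profiled by droplet 3′ single-cell RNA sequencing, 1 library per genotype. The deposited tables give raw counts of UMIs for every gene and barcode, made with Cell Ranger 6.1.2 on mm10 per the submitters' processing notes. The tables held 14372 control and 11556 knockout barcodes with 184683653 and 152092210 UMIs, and 39 barcodes occurred in both. A barcode passed with 500 or more genes and a mitochondrial share below 10% (8192 and 6706 barcodes). Scrublet in scanpy 1.11.5 marked doublets at a score of 0.433, the control's automatic threshold, and 146 and 66 cells were removed. The knockout's own threshold of 0.476 marked 52. Cells of both libraries were clustered jointly (2000 variable genes, 30 components, 15 neighbours, leidenalg 0.10.2 at resolution 1) without the members, the other listed interferon genes, selenoprotein, sex-linked, mitochondrial or ribosomal genes. Clusters were named from listed markers, with naming thresholds set after seeing the data. UMIs were summed per library and class and scaled to CPM. Levels carry exact Poisson intervals and ratios exact conditional binomial intervals at 95%. A gene was measured at 20 CPM or more in either library and 50 UMIs over both. Each group being 1 library, nothing was tested between groups.

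The members and gene lists were chosen with earlier results of these data known. Values are given for members measured over all kept or HSC-like cells, and for members 1.5-fold apart with at least 50 UMIs in a class. The computations were tested on simulated independent Poisson counts of the summed libraries, the model that the intervals assume. That test leaves out the gathering of UMIs in single cells. Alternatives covered the cell filter, doublets, scaling, weighting of cells, floor, clustering, gating and thinning.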

Additional observations from a re-analysis of the deposited data

Results flagged for a closer look

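Among the named classes compared, the counting interval of the log2 ratio of knockout over control lay below 0 in one and above 0 in another for 3 members. Unnamed clusters were left out of this search. These differences between classes were not tested, since each genotype is 1 library. Ifit2 was at -1.43 in conventional dendritic cell-like cells and at 1.08 in basophil or mast-like cells. Ifitm2 was at -0.19 in the multipotent or lymphoid-primed class and at 0.38 in conventional dendritic cell-like cells. Ifitm3 was at -0.46 and 0.27 in the same classes.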

How the results depend on the processing

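Of the single-gene ratios recomputed under the alternatives, 955 stayed within their counting interval, 46 left it, and 3 whose interval excludes 0 changed sign. Among ratios whose interval includes 0, 51 of 463 recomputed values had the opposite sign, in 27 of 67 ratios. Of the values that answer a comparison, 176 stayed within their interval or within 1.5 times the count, 38 moved and 1 turned its sign, and 5 of 60 for which 0 lay within the interval had the opposite sign. With no floor except 10 UMIs, more members entered. The number at least 1.5-fold apart was then 3 of 36 in all kept, 4 of 36 in HSC-like and 6 of 32 in basophil or mast-like cells. It was 7 of 27 in conventional dendritic cell-like, 8 of 34 in monocyte progenitor-like, 6 of 35 in multipotent or lymphoid-primed and 10 of 34 in neutrophil progenitor-like cells. Members went both ways, such as 7 lower and 3 higher in neutrophil progenitor-like cells. The share of all genes at this floor is not given, so these counts are not a result about the list. With the stricter filter of 1000 genes and 5% mitochondrial UMIs (6725 and 3954 cells) the number of members 1.5-fold apart was 1 in HSC-like, 1 in multipotent or lymphoid-primed and 0 in neutrophil progenitor-like cells, and with the mean over cells 1 in each of the former. In neutrophil progenitor-like cells it was also 0 with doublets kept, a floor of 50 CPM, Leiden resolution 0.5 or 2, and cell-by-cell gates. The summed members' log2 ratio was -0.20 in all kept cells with median-of-ratios size factors and -0.21 in HSC-like cells with the stricter filter. The share of HSC-like cells with at least 3 core UMIs was 16.55% and 15.2% with cells thinned to 10000 UMIs, and the share with at least 5 was 2.93% and 1.31%. The 3 ratios that changed sign were those of Ifit2 in conventional dendritic cell-like cells (0.059, stricter filter), Ifitm3 in monocyte progenitor-like cells (-0.0171, median-of-ratios) and of Ifitm3 in neutrophil progenitor-like cells (0.0529, Leiden resolution 2). The summed core was recomputed by choices made after seeing the data. Its log2 ratio was -0.125 in all kept, -0.495 in HSC-like and -0.093 in conventional dendritic cell-like cells with the stricter filter, and in all kept cells -0.154 with median-of-ratios and -0.140 with the mean over cells. Doublets kept gave 0.23 in monocyte progenitor-like cells and -0.109 in the multipotent or lymphoid-primed class, which stood at -0.215 at resolution 2 and -0.243 with cell-by-cell gates. Those gates gave -0.090 in HSC-like cells, and resolution 0.5 gave -0.136 in neutrophil progenitor-like cells. Without cells of 5 or more core UMIs it was 0.0084 in all kept, -0.065 in HSC-like, -0.025 in conventional dendritic cell-like, -0.034 in monocyte progenitor-like cells and -0.184 in the multipotent or lymphoid-primed class. That last shift followed from choosing the cells by the same core UMIs. The cause of the other shifts was not tested. The multipotent or lymphoid-primed class had no cluster of its own at resolution 0.5, so its values were not computed there.

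No paired analysis was possible because each group has 1 library. Mice, library preparation and genotype cannot be told apart, and intervals leave out the spread between mice. Where a counting interval includes 0, a difference was not detectable at this depth.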
